A study of Homo sapiens with 6 samples.

Results

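HLA-B, HLA-C and CD74 are genes of antigen presentation, and their RNA was measured in PC9-GR, a gefitinib-resistant line, and in its parent PC9. They were found by gene symbol in a table of 1705 entries, which holds 6 entries for them: 4 for HLA-B, 1 for HLA-C and 1 for CD74. The HLA-B entry on chromosome 6 and the CD74 entry on chromosome 5 are on primary chromosomes. The other 4 are on scaffolds that carry alternative copies of the major histocompatibility complex (MHC), named COX, MCF and QBL in the table, and are kept apart below by these names.

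PC9 is an established human lung adenocarcinoma line with an exon 19 deletion in EGFR, which both groups carry. PC9-GR was derived from it with gefitinib, an EGFR kinase inhibitor, with the dose raised in steps that began at 0.5 µM and ended at 10 µM, which was also the maintenance dose; RNA was taken after 7 days off the drug. PC9 is the parental line. Each group had 3 libraries from independent cultures, and whether PC9-GR is 1 clone or a pool is not given in the sources used here.

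HLA-B and HLA-C encode heavy chains of MHC class I, which bind peptides made from proteins inside the cell and show them at the surface to CD8 T cells and to receptors of natural killer cells. CD74, the invariant chain, belongs to the class II pathway: it fills the peptide groove of new class II molecules and escorts them to endosomes, and at the cell surface it also binds the cytokine MIF. Most nucleated cells make class I, whereas class II is mainly made by professional antigen-presenting cells and, in some settings, by epithelial cells of the lung. Interferon raises transcription of both sets, through interferon regulatory factors and the coactivators NLRC5 and CIITA.

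The 250 bases upstream of each gene start are shown because promoters of class I genes and of CD74 are known to share short control elements, which can be looked for in the letters. They are reference sequences from RefSeq on GRCh38.p14, not the alleles of PC9, and were found for 3 of 3 symbols. They run 5′ to 3′ on the gene's own strand, which is the minus strand in each case, at chr6:31357180-31357429 for HLA-B, chr6:31272093-31272342 for HLA-C and chr5:150412911-150413160 for CD74. Capitals mark matches to the motifs CCAAT, AANNGAAA, GGNNTTNCC and TGACGC on either strand.
HLA-B: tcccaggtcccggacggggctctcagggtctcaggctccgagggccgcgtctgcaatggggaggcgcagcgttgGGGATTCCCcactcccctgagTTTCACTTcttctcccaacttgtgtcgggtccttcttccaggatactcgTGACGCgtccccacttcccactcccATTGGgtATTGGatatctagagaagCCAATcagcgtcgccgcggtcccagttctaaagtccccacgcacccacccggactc
HLA-C: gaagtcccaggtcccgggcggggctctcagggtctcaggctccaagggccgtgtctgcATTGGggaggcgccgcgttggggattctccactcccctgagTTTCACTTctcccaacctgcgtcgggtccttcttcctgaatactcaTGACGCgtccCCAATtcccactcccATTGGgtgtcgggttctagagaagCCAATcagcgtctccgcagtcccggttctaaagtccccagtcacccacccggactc
CD74: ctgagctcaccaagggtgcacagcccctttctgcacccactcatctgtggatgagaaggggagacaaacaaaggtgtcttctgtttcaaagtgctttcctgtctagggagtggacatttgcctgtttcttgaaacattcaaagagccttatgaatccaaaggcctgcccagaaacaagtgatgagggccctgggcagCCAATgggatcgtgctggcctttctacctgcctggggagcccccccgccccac

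CCAAT is the core of the Y box, bound by NF-Y. AANNGAAA is a core bound by interferon regulatory factors, GGNNTTNCC is a core of κB elements, bound by NF-κB, and TGACGC is a core like that of the X2 box. The motifs were chosen with these sequences in view, and a match is a description of the letters, not a bound site. No match overlapped another. The HLA-B window held 3 CCAAT matches and 1 match to each of the other motifs. The HLA-C window held 4 CCAAT matches, 1 AANNGAAA match and 1 TGACGC match, and no match to the κB core. The CD74 window held a single CCAAT match, at positions -53 to -49, where -1 is the base before the start. HLA-B and HLA-C each had CCAAT at positions -56 to -52. Of 34943 RefSeq promoter windows of 250 bases, 32.0% held CCAAT, 20.3% AANNGAAA, 14.97% the κB core and 7.64% TGACGC.

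The HLA-B and HLA-C windows were identical at 226 of 254 aligned columns (89.0%), against 120 of 260 (46.2%) for HLA-B and CD74. In that alignment, HLA-B had the κB match at positions -176 to -168, and the aligned bases of HLA-C differed from it by the single substitution C8T, counted from 1 at the 5′ end of the HLA-B match.

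**Figure D1:**
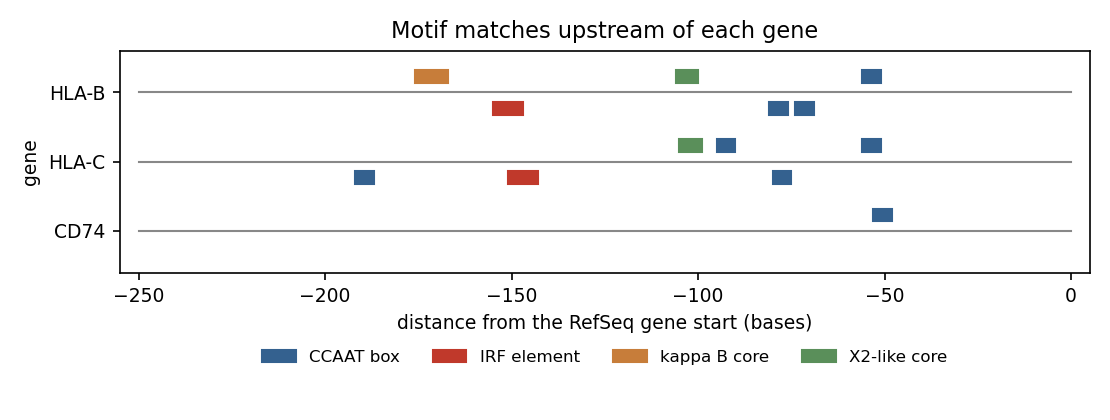
Motif matches upstream of HLA-B, HLA-C and CD74, by distance in bases from the RefSeq gene start; boxes above a line are matches on the gene's strand and boxes below it are on the opposite strand. HLA-B has 3 CCAAT matches, HLA-C 4 and CD74 1, and the κB match is on HLA-B.

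The table gives FPKM for each library, a level scaled to transcript length and to the number of mapped fragments. It is a selection: each of its 1705 entries has an authors' log2 ratio of at least 1.00 in either direction. Each also has an authors' deposited p-value of at most 0.04965. Both come from these same libraries, so the differences, p-values and lack of overlap below are conditioned on that choice. Depth per library is unknown, because no counts are given. The listed entries sum to 16705 to 17114 FPKM in PC9-GR and 28346 to 30541 FPKM in PC9. Differences were tested with limma on log2(FPKM + 1), a scale that understates changes of low genes, with Benjamini-Hochberg adjustment over 1207 entries that reached 1 FPKM in at least 3 libraries. Means are given ± SD with n = 3 libraries in each group.

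HLA-B was higher in PC9-GR in each of its entries. The COX entry (ENSG00000223532, COX scaffold, 31312133 to 31315506) carried most of the signal. It measured 16.0, 18.8 and 14.9 FPKM in PC9-GR, against 5.76, 4.61 and 4.31 FPKM in PC9. The lowest PC9-GR library was thus far above the highest PC9 library. The means were 16.5 ± 1.99 FPKM in PC9-GR and 4.89 ± 0.766 FPKM in PC9, a 3.38-fold difference (limma log2 difference 1.58, SE 0.138, adjusted p = 3.59e-06).

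The MCF entry of HLA-B (ENSG00000232126, MCF scaffold, 31398031 to 31401418) measured 3.29, 5.05 and 3.50 FPKM in PC9-GR, against 1.53, 0.981 and 0.821 FPKM in PC9. Again the groups did not overlap, and replicate 2 was the highest PC9-GR library, as it was for COX. The fold was 3.55 (limma log2 difference 1.23, SE 0.181, adjusted p = 0.000104).

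The entry on chromosome 6 itself (ENSG00000234745, 31321648 to 31325414 in the table, which names no build) measured 2.27, 2.99 and 3.52 FPKM in PC9-GR, against 1.09, 0.794 and 1.11 FPKM in PC9. Here replicate 3 was the highest PC9-GR library. The fold was 2.93 (limma log2 difference 0.96, SE 0.152, adjusted p = 0.000156). With library totals, here the sums of the listed entries, set equal, the log2 difference was 1.48. It was 0.77 with median-ratio scaling and 0.73 with quantile normalization.

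The QBL entry (ENSG00000206450, QBL scaffold, 31311767 to 31315097) was the lowest of the HLA-B entries, with 0.711, 1.25 and 1.496 FPKM in PC9-GR and 0.427, 0.202 and 0.391 FPKM in PC9. It fell short of the filter, since 2 libraries reached 1 FPKM. The groups did not overlap. A two-sided exact permutation test on this entry had p = 0.1, and groups of 3 libraries can give no smaller p. Without the filter, limma gave it an adjusted p of 0.00363. The authors' deposited table gives this entry a log2 ratio of 1.61.

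**Figure D2:**
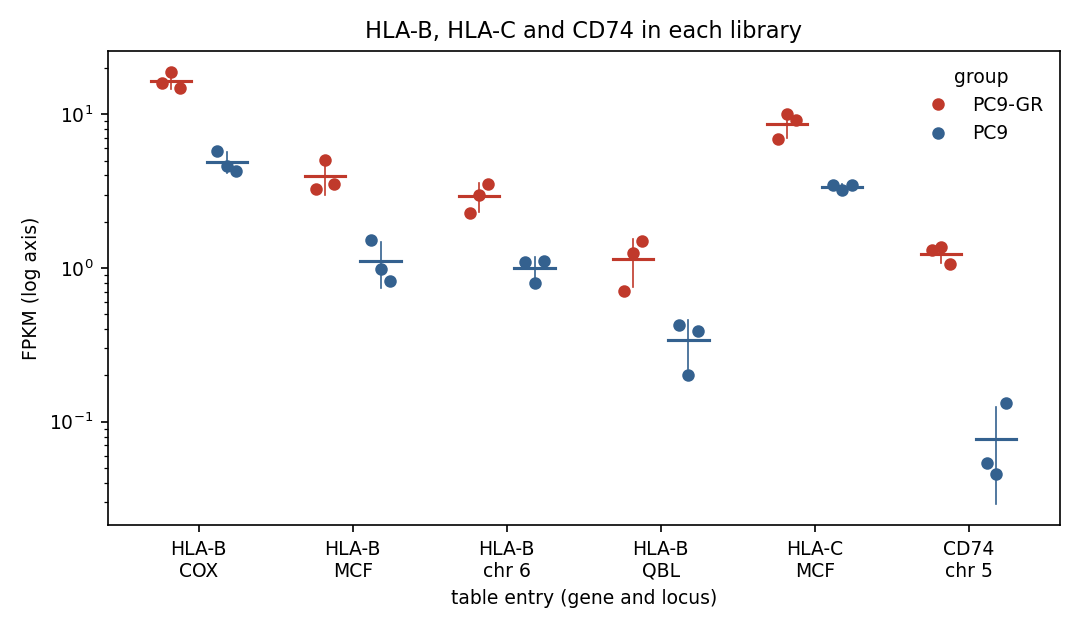
FPKM on a log axis for the 6 entries of HLA-B, HLA-C and CD74, with 3 PC9-GR libraries left of 3 PC9 libraries in each; points are libraries, horizontal bars are means and vertical bars are 1 SD. In each entry the lowest PC9-GR library lies above the highest PC9 library, and CD74 has the widest gap.

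Copies of 1 gene share sequence, so reads can be split between the HLA-B entries, and how they were divided is not given in the sources used here. Each single entry is therefore uncertain as a level of HLA-B. The 4 listed entries together summed to 22.2, 28.04 and 23.4 FPKM in PC9-GR, against 8.81, 6.58 and 6.63 FPKM in PC9. An HLA-B copy that did not pass the selection of the table would be missing from this sum, so it is not the whole of HLA-B. PC9-GR replicate 2 and PC9 replicate 1 were the highest of their lines, and the groups did not overlap. The sums averaged 24.6 ± 3.07 FPKM in PC9-GR and 7.34 ± 1.27 FPKM in PC9, a 3.35-fold difference (limma log2 difference 1.62, SE 0.1401, adjusted p = 3.39e-06, with the sum in place of the entries).

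The split between the entries differed by less than the spread between libraries. Shares are of the sum over the 4 listed entries, not of all HLA-B. COX held 67.4 ± 4.12% of this sum in PC9-GR and 66.8 ± 2.796% in PC9. MCF held 15.9 ± 1.81% in PC9-GR and 14.9 ± 2.48% in PC9, and the chromosome 6 entry held 12.0 ± 2.66% in PC9-GR and 13.8 ± 2.64% in PC9. QBL held 4.68 ± 1.61% in PC9-GR and 4.61 ± 1.44% in PC9. The ranges of the shares overlapped between the lines for each entry, and two-sided exact permutation tests gave p from 0.5 to 0.9. With 3 libraries a line, these tests cannot go below 0.1, so they do not show that the shares are equal.

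**Figure D3:**
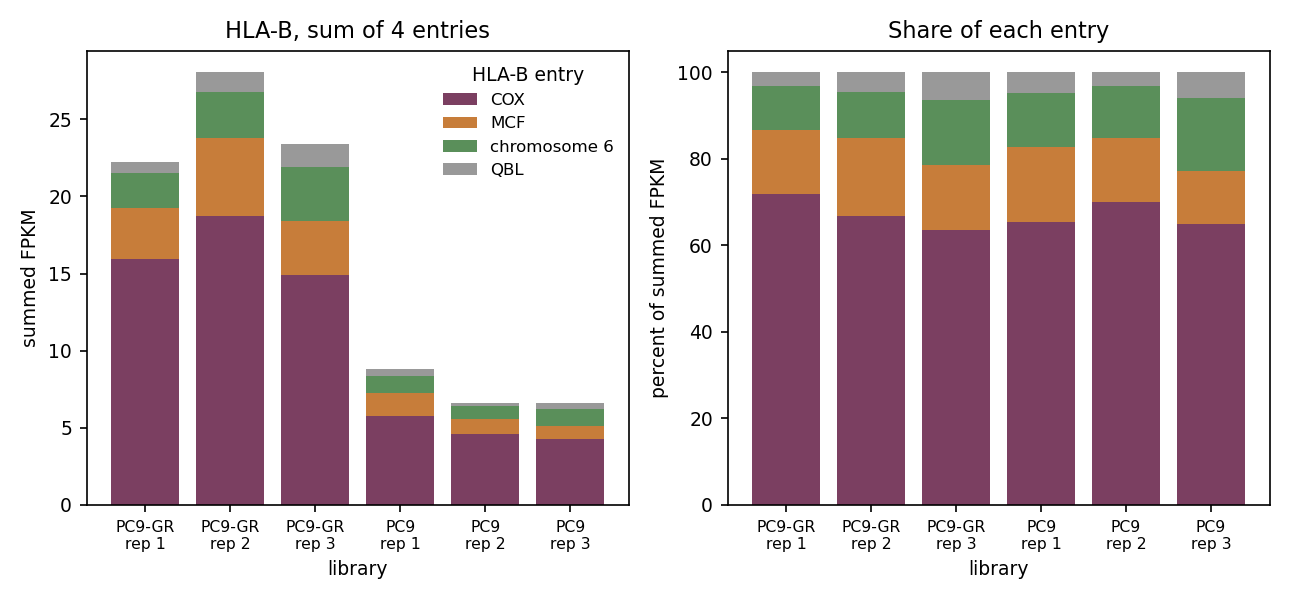
The 4 HLA-B entries stacked in each library, PC9-GR left of PC9: summed FPKM on the left and percent of the sum on the right. The sum is 22.2 to 28.04 FPKM in PC9-GR and 6.58 to 8.81 FPKM in PC9, while COX takes 63.6% to 71.8% of it in PC9-GR and 64.9% to 70.0% in PC9.

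HLA-C, the other class I heavy chain listed and a main ligand of killer cell immunoglobulin-like receptors, rose as well. It is listed by its MCF scaffold entry alone (ENSG00000225691, 31313665 to 31317037), and its copy on chromosome 6 was not analysed here. It measured 6.86, 9.995 and 9.19 FPKM in PC9-GR, against 3.45, 3.22 and 3.47 FPKM in PC9. The PC9 libraries were nearly equal, the PC9-GR libraries were more spread, and the groups did not overlap. The means were 8.68 ± 1.63 FPKM in PC9-GR and 3.38 ± 0.143 FPKM in PC9, a 2.57-fold difference (limma log2 difference 1.13, SE 0.150, adjusted p = 4.97e-05). With the totals of the listed entries set equal the log2 difference was 1.80. It was 0.87 with median-ratio scaling and 1.21 with quantile normalization.

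HLA-C was compared with HLA-B within each library. The HLA-B value is a sum of 4 entries and the HLA-C value is its MCF entry alone. The ratio therefore sets a sum over copies against a single copy. The log2 ratio of summed HLA-B to HLA-C FPKM averaged 1.51 ± 0.175 in PC9-GR and 1.11 ± 0.217 in PC9. The lines overlapped by a narrow margin, at 1.35 in the lowest PC9-GR and the highest PC9 library, and its exact permutation p, two-sided, was 0.2 (adjusted p = 0.667 over 4 ratios). A larger rise of HLA-B than of HLA-C was therefore not shown. The other 3 ratios compared HLA-B entries with each other, and their exact permutation p was 0.5, 0.5 and 0.7.

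How much sequence the class I genes share was measured on reference transcripts of GENCODE 29, the longest coding one for each gene. Of the 50-base windows of HLA-B, 30 of 1498 (2.00%) also occur in HLA-C, 3 occur in HLA-F and 1 occurs in HLA-E. HLA-C shares 26 of its 1505 windows (1.73%) with HLA-E and 12 with HLA-F. With windows of 100 bases, 0 of 1448 HLA-B windows occur in HLA-C, and no window of CD74 occurs in any of the HLA transcripts compared. The alleles of PC9 can differ from these references.

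CD74 was close to the bottom of the table in PC9 and above 1 FPKM in the 3 PC9-GR libraries. It (ENSG00000019582, chromosome 5, 149781199 to 149792492 in the table) measured 1.30, 1.36 and 1.06 FPKM in PC9-GR, against 0.0535, 0.0455 and 0.132 FPKM in PC9. The PC9-GR libraries lay close together and the 3 PC9 libraries were far below 1 FPKM. The means were 1.24 ± 0.161 FPKM in PC9-GR and 0.0770 ± 0.0478 FPKM in PC9, a ratio of 16.1. That ratio is imprecise because the level in PC9 is so low. On the log2(FPKM + 1) scale the difference was 1.06 (limma SE 0.0919, adjusted p = 3.48e-06). It was 3.97 with a pseudocount of 0.01. The authors' deposited table gives CD74 a log2 ratio of 4.13, with 0.000543 as its q-value. As these are bulk cultures, more CD74 RNA in each cell and more cells that make it cannot be told apart.

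All 5 member entries tested were called higher, where 48.4% of the 1207 tested entries were called higher, 51.3% lower and 99.7% in either direction. The groups did not overlap, with PC9-GR higher, in 6 of 6 member entries, against 48.3% of all 1705 entries. As nearly every listed entry is called, the calls give the members a direction and do not single them out. Of the 6 member entries 4 are copies of 1 gene, HLA-B, which can share reads. These counts and the median below are thus over entries that are not independent, not over separate genes. The median log2 difference of the 5 tested entries was 1.13, against 1.10 over the 587 tested entries with a positive difference and -0.63 over all tested entries. Ranked by size on log2(FPKM + 1) among those 587, COX was at 129, MCF at 238, HLA-C at 278, CD74 at 325 and the chromosome 6 entry at 393. The order of the members depends on the pseudocount. With 0.01 the log2 difference was 3.97 for CD74, 1.84 for MCF, 1.76 for COX, 1.53 for the chromosome 6 entry and 1.34 for HLA-C.

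By level, the order in PC9-GR was HLA-B COX, HLA-C, HLA-B MCF, HLA-B on chromosome 6, CD74 and HLA-B QBL. In PC9-GR the FPKM ranges of MCF and chromosome 6 overlapped, and so did those of CD74 and QBL. In PC9 the order was COX, HLA-C, MCF, chromosome 6, QBL and CD74, and there the ranges of MCF and chromosome 6 overlapped again, while CD74 lay below each HLA entry. Among 1705 entries by mean FPKM, CD74 was at rank 1057 in PC9-GR and rank 1647 in PC9, and COX at rank 211 in PC9-GR and rank 541 in PC9.

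**Figure D4:**
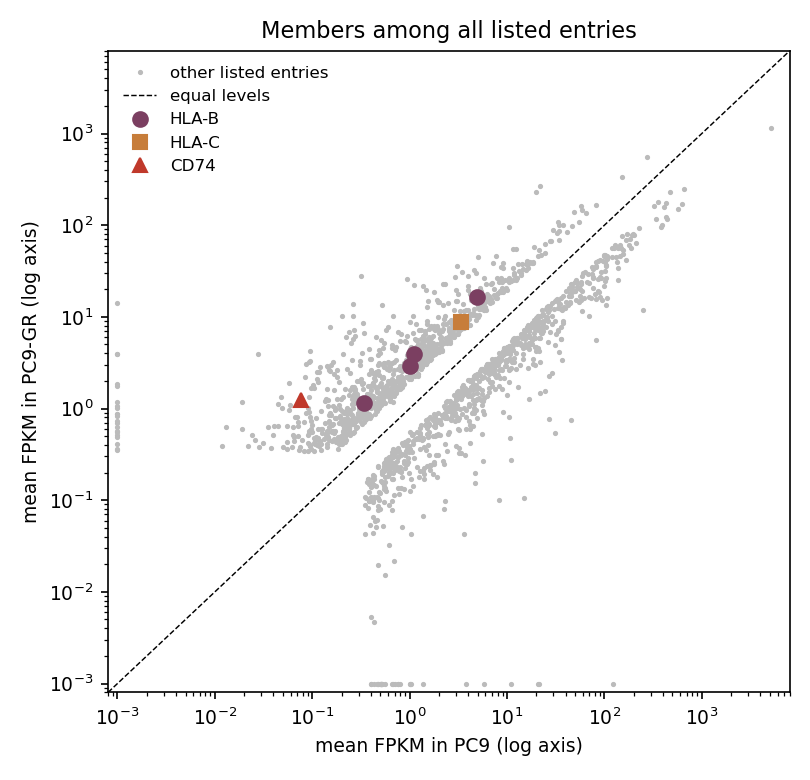
Mean FPKM of each of the 1705 listed entries in PC9-GR against PC9, both on log axes, with HLA-B, HLA-C and CD74 marked and a dashed line of equal levels. The band along the line is empty because the table holds genes selected as changed; CD74 sits far to the left at 0.0770 FPKM in PC9.

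The rest of the antigen presentation machinery was mostly outside the table. Of 24 class I pathway genes, HLA-B, HLA-C and IRF1 are listed. IRF1, a transcription factor that drives class I genes, measured 8.29, 10.9 and 8.75 FPKM in PC9-GR and 3.45, 5.87 and 5.02 FPKM in PC9. It was called higher, with a 1.95-fold difference (limma log2 difference 0.85, SE 0.179, adjusted p = 0.00103). The other 21 genes of that list, among them B2M, the light chain of class I, and the peptide transporters TAP1 and TAP2, were not analysed here.

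Of 22 class II pathway genes, CD74, HLA-DQB1 and CTSV are listed. HLA-DQB1, a class II beta chain and so a client of CD74, measured 0.674, 1.41 and 0.941 FPKM in PC9-GR and 0.549, 0.527 and 0.394 FPKM in PC9. It was below the filter. Its groups did not overlap, its two-sided exact permutation p was 0.1, and limma without the filter gave an adjusted p of 0.0226. The authors' deposited q-value for HLA-DQB1 is 0.0806. CTSV, a lysosomal cathepsin that can cleave the invariant chain, went the other way. It measured 21.7, 24.4 and 25.3 FPKM in PC9-GR and 48.6, 60.8 and 63.8 FPKM in PC9, and was called lower (limma log2 difference -1.24, adjusted p = 7.87e-06). Of 6 genes for ligands and partners of CD74 only ACKR3, a scavenging chemokine receptor, is listed. It was called higher at 39.5 ± 2.06 FPKM in PC9-GR and 18.4 ± 3.47 FPKM in PC9.

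Interferon-responsive transcripts listed beside the members were higher in PC9-GR. Of 37 such genes 5 are listed, 5 were called higher and 0 lower, with a median log2 difference of 1.502. Over all 1207 tested entries 48.4% were called higher, with a median of 1.10 over those with a positive difference, so in this preselected table the calls give a direction and do not single these genes out. MX1, an antiviral GTPase, measured 7.29 ± 0.301 FPKM in PC9-GR and 1.96 ± 0.732 FPKM in PC9. IFI44 measured 5.43 ± 0.833 FPKM in PC9-GR and 0.796 ± 0.255 FPKM in PC9. The guanylate-binding protein GBP1 was at 3.69 ± 0.164 FPKM in PC9-GR and 1.28 ± 0.338 FPKM in PC9. IFI6 and IFI44L had log2 differences of 1.502 and 1.32. None of the 15 interferons, interferon receptors and their kinases on the list fixed here is in the table.

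Genes linked to NF-κB moved both ways. Of 21 on the list 4 are in the table, and of the 3 tested 2 were called higher and 1 lower. ICAM1, an adhesion molecule for lymphocytes, measured 26.2 ± 5.07 FPKM in PC9-GR and 7.81 ± 2.16 FPKM in PC9. CCL2, a monocyte chemokine, measured 3.12, 4.58 and 3.995 FPKM in PC9-GR and was listed at the floor of 0.001 FPKM in each PC9 library. TNFAIP2 was called lower at 44.7 ± 5.81 FPKM in PC9-GR and 118.5 ± 13.0 FPKM in PC9. TRAF1, a signalling adaptor, did not reach the filter, with 0.564 ± 0.0917 FPKM in PC9-GR and 0.173 ± 0.0201 FPKM in PC9. Of 24 ligands for T cell and natural killer cell receptors, TNFSF9 was called higher at 1.71 ± 0.139 FPKM in PC9-GR and 0.267 ± 0.121 FPKM in PC9. NCR3LG1, which binds the natural killer receptor NKp30, did not reach the filter, with 0.206 ± 0.0687 FPKM in PC9-GR and 0.626 ± 0.122 FPKM in PC9.

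**Figure D5:**
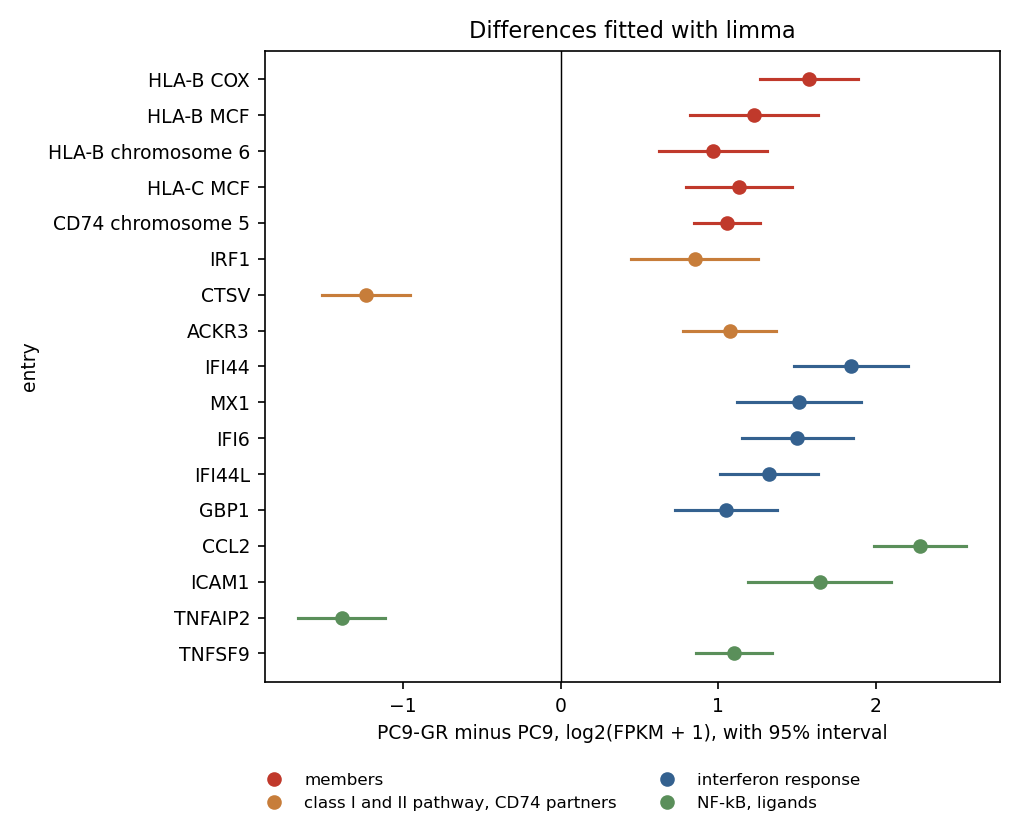
Log2(FPKM + 1) differences, PC9-GR minus PC9, for entries above the filter: the members first, then called genes of the pathway, interferon, NF-κB and ligand lists; points are limma estimates and lines are 95% intervals. The members lie between 0.96 and 1.58, and CTSV and TNFAIP2 lie below 0.

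Markers of cells that normally carry CD74 were looked at in the same libraries. Of 12 myeloid markers 4 are listed, and their summed level was 43.0 to 51.6 FPKM in PC9-GR and 18.7 to 22.0 FPKM in PC9. Most of that sum was CD68, at 38.4 ± 3.61 FPKM in PC9-GR and 18.6 ± 1.05 FPKM in PC9. The authors' deposited q-value for CD68 is 0.0699. ITGAM, ITGAX and CD68 were called higher, with ITGAX at 2.83 ± 0.187 FPKM in PC9-GR and 0.119 ± 0.0281 FPKM in PC9. LYZ, which did not reach the filter, had 0.142 ± 0.125 FPKM in PC9-GR and 1.09 ± 0.459 FPKM in PC9, with 1 PC9-GR library at the floor. Of 8 pan-haematopoietic markers 3 are listed, and their sum was 219.3 to 248.7 FPKM in PC9-GR and 454.6 to 497.1 FPKM in PC9, most of it ARHGDIB. Of the 2 tested, CORO1A was called higher and ARHGDIB lower, and ARHGDIB was no longer called under equal library totals or quantile normalization (limma adjusted p = 0.0674 and 0.301). CD37, which did not reach the filter, had 0.583 ± 0.261 FPKM in PC9-GR and 0.0962 ± 0.0670 FPKM in PC9. Of 10 fibroblast markers PDGFRB is listed and was called higher (limma log2 difference 1.95). None of 11 lymphoid, 7 endothelial and 9 epithelial markers is in the table, so the epithelial label could not be checked against them. The part of such cells in the CD74 difference was not tested.

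The neighbourhood of the members was described next. Between 28 and 34 Mb of chromosome 6 and on its MHC scaffolds there are 14 entries, 9 of them not members. Of the 5 tested non-members, 3 were called higher and 2 lower. One of them, XXbac-BPG248L24.12 (ENSG00000271581), has the same locus as the HLA-B entry of chromosome 6. GENCODE 29 types this identifier as an unprocessed pseudogene, on the plus strand at 31356647 to 31357637 of GRCh38, where HLA-B is on the minus strand. It measured 4.64, 4.79 and 3.46 FPKM in PC9-GR and 2.10, 1.37 and 1.49 FPKM in PC9 (limma log2 difference 1.00, adjusted p = 0.000212). The strand setting of the counting is not given in the sources used here, so its reads and those of HLA-B cannot be told apart.

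Of the coding neighbours on chromosome 6, ZKSCAN3, a zinc finger gene, was called higher (limma log2 difference 0.76), and so was the inositol phosphate kinase gene IP6K3 (limma log2 difference 1.16). C6orf15 was called lower (limma log2 difference -1.07). The pseudogene ZSCAN12P1 was called lower too, but not under equal library totals (limma adjusted p = 0.0545). MDC1 had 0.934, 0.736 and 4.11 FPKM in PC9-GR and 0.654, 0.655 and 0.554 FPKM in PC9, so 1 PC9-GR library carried its mean, and it was below the filter. CDSN, which encodes corneodesmosin of the skin and lies next to C6orf15, was also below the filter, at 0.205, 0.143 and 0.107 FPKM in PC9-GR and 0.338, 0.412 and 0.391 FPKM in PC9. Its groups did not overlap, with PC9-GR lower, its two-sided exact permutation p was 0.1, and limma without the filter gave an adjusted p of 0.00605. AL390196.1, on the SSTO scaffold, had 9.05 and 2.78 FPKM in 2 PC9-GR libraries and was at the floor of 0.001 FPKM in the other PC9-GR library and in the PC9 libraries. HLA-DQB1, described above, completes the 9.

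CD74 lies on chromosome 5 in a row of 8 consecutive listed genes that all have an authors' ratio above 1, from PCYOX1L to SPARC (148737569 to 151104343 in the table). Of the 84 genes listed on chromosome 5, 43 have such a ratio. Next to CD74 on 1 side is ARSI, an arylsulfatase gene, at 4.41, 5.09 and 4.06 FPKM in PC9-GR and 1.51, 1.44 and 1.66 FPKM in PC9. On the other side is GPX3, a secreted glutathione peroxidase, at 86.7, 82.4 and 85.9 FPKM in PC9-GR and 36.2, 41.6 and 46.6 FPKM in PC9. CD74 and PDGFRB had the lowest PC9 levels of the 7 genes from SLC26A2 to SPARC.

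The genes most like each member were those with the smallest Euclidean distance on log2(FPKM + 1) over the 6 libraries, among 1202 tested entries. For HLA-B COX they were EFEMP2 (distance 0.258), TTLL7 (distance 0.392) and PROCR (distance 0.494). For HLA-C they were FAM127C (distance 0.319), SYNGR1 (distance 0.421) and ZHX2 (distance 0.460). For CD74 they included IP6K3 (distance 0.243) and ZNF804A (distance 0.288). IP6K3 measured 1.28, 1.43 and 1.30 FPKM in PC9-GR and 0.0117, 0.109 and 0.0237 FPKM in PC9. It also lies in the chromosome 6 window described above, and no gene of the antigen presentation or interferon lists is among these 8.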

How the data were processed

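RNA was measured in 3 PC9-GR and 3 PC9 libraries; per the labels, total RNA was extracted with Trizol and made into libraries with a strand-specific Agilent SureSelect kit. The submitters' processing notes name TopHat and Cufflinks. The sources used here give no version, build or annotation, and do not say how reads with several matches were treated. Per the file headers, the deposited values are FPKM in each library and in each group. The deposited columns of the comparison are a ratio (PC9-GR over PC9), the log2 of that ratio, and its p-value and q-value. The lowest FPKM, 0.001, was read as the floor.

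FPKM was used as deposited. The test was limma 3.58.1 in R 4.3.3, two-sided, on log2(FPKM + 1) with a variance trend and group as the only term, over entries with at least 1 FPKM in at least 3 libraries, called at adjusted p under 0.05. Single values were tested with exact permutation tests. The step was tested on simulated data in which most genes were unchanged. The table used here is selected for change, so that test does not measure the error of its calls. Motifs, alignments and figures used Python 3.11.15. Depth is unknown, so no counting interval is given.

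The members and the gene lists were chosen with earlier results of these data known. Named genes were every member entry, each listed gene of the class I, class II and CD74 partner lists, up to 4 called entries a direction from each other list, entries of the MHC region, and the 3 nearest genes of each member, 1 of which is not reported here. GBP1 of the interferon list was named beyond that limit of 4. Entries below the filter, and the neighbours of CD74, were named after their values were seen. The alternatives were other pseudocounts, filters, scalings, no variance trend, summed entries, a replicate block and leaving out each library. Other genes were not analysed here.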

Additional observations from a re-analysis of the deposited data

How the results depend on the processing

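The direction of each of the 6 member entries and of the HLA-B sum was higher in PC9-GR in each alternative that gave a value. The 5 tested entries and the sum were called in each that tested them. The entries were selected on these same libraries, and 99.7% of the 1207 tested were called as deposited. Keeping the direction and the call thus follows largely from that selection and does not single the members out. Without a filter on low values the QBL entry, at a log2 difference of 0.67, passed limma (adjusted p = 0.00363, against exact p of 0.1 to 0.2 in the other alternatives that keep it apart), and with FPKM summed over rows of a symbol, its gene has a difference of 1.62 (limma adjusted p = 3.39e-06). With a filter at 5 FPKM, 2 member entries were left and called, and 234 genes were called higher and 393 lower, against 584 and 619, since fewer genes were tested. With summed rows, 3 members were called, since there are fewer entries. With each library left out in turn, the log2 difference ran from 1.49 to 1.68 for HLA-B COX, 1.07 to 1.36 for HLA-B MCF, 0.86 to 1.09 for HLA-B on chromosome 6, 0.55 to 0.83 for QBL, 1.03 to 1.27 for HLA-C and 1.02 to 1.12 for CD74. Equal library totals moved the median of all tested genes by 0.47, quantile normalization by 0.34 and median-ratio scaling by -0.14. Relative to that median, COX was 2.20 higher as deposited and 2.44, 2.11 and 2.06 higher under these 3 scalings, and CD74 was 1.68 higher as deposited and 1.504, 1.20 and 1.71 higher. In the same order, HLA-C was 1.76 higher as deposited and 1.96, 1.496 and 1.63 higher, HLA-B MCF was 1.85 and then 1.92, 1.36 and 1.78 higher, HLA-B on chromosome 6 was 1.59 and then 1.63, 1.01 and 1.53 higher, and QBL was 1.296 and then 1.16, 0.74 and 1.30 higher. With equal totals 586 genes were called higher and 433 lower, so 57.5% of calls were higher, against 48.5% as deposited, and with the filter at 5 FPKM 37.3% were.

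The deviations of same-numbered PC9-GR and PC9 libraries from their group means had weak correlations (-0.10, 0.08 and 0.16). With 3 libraries a group, such values cannot decide whether the numbers pair the samples. PC9-GR replicates 1 and 2 correlated best with a PC9 library of another number, and PC9-GR replicate 3 with its own. With the replicate block 586 of the 1207 tested genes were called higher and 619 lower. The 5 tested members were still called (limma adjusted p from 1.33e-05 for HLA-B COX to 0.000387 for HLA-B on chromosome 6). The QBL entry has no block value. The lack of counts limits what can be said of CD74 in PC9, where the 3 libraries are at 0.132 FPKM or below.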
